A study of Mus musculus with 13 samples.

Results

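Interferon-stimulated genes are the genes that cells switch on when type I, II or III interferons bind their receptors. In that pathway the receptors activate Janus kinases, these activate STAT proteins, and a complex of STAT proteins with IRF9 binds a promoter element called ISRE. The products sense viral RNA, block viral replication, mark proteins with the ubiquitin-like modifier ISG15, or amplify and restrain the pathway itself. Many of these genes also have a resting level kept up by low, tonic interferon signalling. The set followed here is a list of 32 such genes, matched to the probes of a mouse expression array by gene name or synonym; the list was drawn up with earlier results of these data known. Of the 32 genes, 30 had a probe, 49 probes in all, and each of the 30 was among the 18274 genes tested. Dtx3l and Xaf1 had no probe under their names or synonyms and are not analysed here.

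The arrays read RNA of mammary organoids, which are multicellular epithelial fragments freed from the gland by mechanical and enzymatic digestion and cleared of single cells by centrifugation. Tumor organoids came from the largest mammary tumor of MMTV-PyMT mice aged 12 to 16 weeks, in which the mouse mammary tumor virus promoter drives the polyoma virus middle T antigen, and normal organoids from glands of FVB mice, whose age the labels do not give. The gels were collagen I from rat tail (3 mg/ml), the fibrillar protein of connective tissue, and Matrigel, an extract rich in laminin that stands for basement membrane, and every culture had 2.5 nM FGF2 and was read at day 4. The 4 groups compared held 3 arrays each: tumor organoids in collagen I (mice A, B and C), tumor organoids in Matrigel (A, B and C), normal organoids in collagen I (A, B and C) and normal organoids in Matrigel (A, B and D). Arrays of 1 tissue with the same letter came from 1 mouse, and no mouse gave both tissues. The tissue contrast is therefore also a contrast of an FVB stock with a transgenic stock whose background the labels do not state.

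A level is given below as log2 of the processed signal relative to the array's 75th percentile, and a difference is in log2 units, followed by ± its standard error from limma. Calls are at an adjusted p under 0.05 (limma, Benjamini-Hochberg over 18274 genes). With 3 arrays against 3, an exact permutation test of a single gene cannot go below 0.1. The 75th percentile itself was 690 to 812 intensity units in tumor organoids in collagen I, 384 to 570 in tumor organoids in Matrigel, 972 to 1218 in normal organoids in collagen I and 672 to 1101 in normal organoids in Matrigel, so the tumor Matrigel arrays were the dimmest. The probe used for each of the 30 genes was well above background on all 12 arrays, and none was saturated. Luminal and basal keratin genes were measured in all 4 groups. Of 6 basal markers, 1 was called higher and 2 lower in tumor than in normal organoids in each gel. Over all genes tested, 51.8% were called in Matrigel and 8.66% in collagen I, so the basal count in Matrigel was near that share. Cnn1 averaged -0.29 in collagen I and -0.88 in Matrigel in tumor organoids, against 4.55 and 4.59 in normal organoids. Myh11 averaged -3.51 and -4.51, against 2.28 and 2.53, and Trp63 2.73 and 2.65, against 1.52 and 1.70. Of the other cell types, 8 of 8 fibroblast markers were called lower in tumor than in normal organoids in Matrigel and 6 of 8 in collagen I. Of 5 endothelial markers, 4 were called lower in each gel. Of all genes, 25.8% were called lower in Matrigel and 5% in collagen I. The endothelial markers Cdh5, Pecam1 and Tek were tested only because they were well above background on every array of a normal group. That selection favoured lower values in tumor organoids. In such bulk RNA, fewer cells of a type and less RNA per cell cannot be told apart.

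RefSeq promoter windows (GRCm38.p6, 250 bases before to 50 bases after the start) were found for 25 of the 32 genes. The ISRE letters, here GAAA, any 2 bases and GAAA again, searched on both strands with overlapping matches allowed, were in 13 of those 25 windows (52.0%), against 3.99% of 27025 genes with a window. The letters TTCNNNGAA, the GAS element of the interferon-gamma response, were in 5 of 25 windows (20%), against 9.55% of genes; the match in Bst2 overlaps an ISRE match. Stretches of 6 genes are shown because they carry the element most directly tied to the pathway, in 4 genes that were higher in tumor organoids in both gels (Bst2, Isg15, Stat2 and Gbp2) and in 2 that passed in no comparison (Ifit1 and Ifit3). Each is upstream of the start that its window was built on, and is written 5′ to 3′ on the strand of the gene. The ISRE letters or their reverse complement, TTTC, any 2 bases and TTTC, are in capitals. For Ifit3 the start of the window is not the first base of the gene. RefSeq has that gene begin at chr19:34583119, so the Ifit3 stretch lies within the gene.
Bst2, chr8:71537562-71537627, minus strand: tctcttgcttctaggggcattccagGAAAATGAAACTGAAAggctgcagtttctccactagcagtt
Isg15, chr4:156200850-156200921, minus strand: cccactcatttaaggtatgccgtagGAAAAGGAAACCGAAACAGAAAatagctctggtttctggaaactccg
Stat2, chr10:128270251-128270310, plus strand: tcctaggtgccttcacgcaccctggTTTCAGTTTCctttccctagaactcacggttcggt
Gbp2, chr3:142620579-142620638, plus strand: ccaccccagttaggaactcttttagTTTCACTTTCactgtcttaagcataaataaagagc
Ifit1, chr19:34640760-34640838, plus strand: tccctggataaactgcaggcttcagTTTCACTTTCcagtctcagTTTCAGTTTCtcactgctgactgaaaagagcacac
Ifit3, chr19:34583348-34583441, plus strand: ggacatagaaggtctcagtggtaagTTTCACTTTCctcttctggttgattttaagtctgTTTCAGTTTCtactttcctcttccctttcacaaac
Bst2 and Isg15 have the matches run into each other, 2 overlapping matches in Bst2 and 3 in Isg15, while Ifit1 and Ifit3 each have 2 separate ones. Of the 12 genes called higher in tumor organoids in both gels, 4 had an ISRE match in the window, 5 had none (Ifi35, Irf1, Irf7, Oasl1 and Oasl2) and 3 had no window. A match describes the letters of the window only.

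Tumor organoids had higher levels of a large share of the interferon-stimulated genes than normal organoids, in both gels. In Matrigel 15 of 30 were called higher and 1, Ifit2, lower, and in collagen I 14 were called higher and none lower. For all genes tested, 51.8% were called in Matrigel (25.9% higher and 25.8% lower) and 8.66% in collagen I (3.66% higher and 5% lower). The median difference over the 30 genes was 0.78 in Matrigel, where that over all genes was 0.09, and 1.31 in collagen I, where that over all genes was 0.05. With normexp background correction these medians were 0.55 and 0.45 in Matrigel and 1.13 and 0.17 in collagen I. The lists of genes called higher shared 12 genes, which are 12 of the 15 in Matrigel and 12 of the 14 in collagen I: Bst2, Dhx58, Gbp2, Ifi35, Irf1, Irf7, Isg15, Oas2, Oasl1, Oasl2, Stat2 and Usp18. Without overlap of the arrays, 16 genes were higher and 3 (Ifit2, Ifih1 and Trim21) lower in Matrigel, where 29.7% and 28% of all genes were, and 21 were higher and none lower in collagen I, where 18.1% and 14.9% were.

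**Figure D1:**
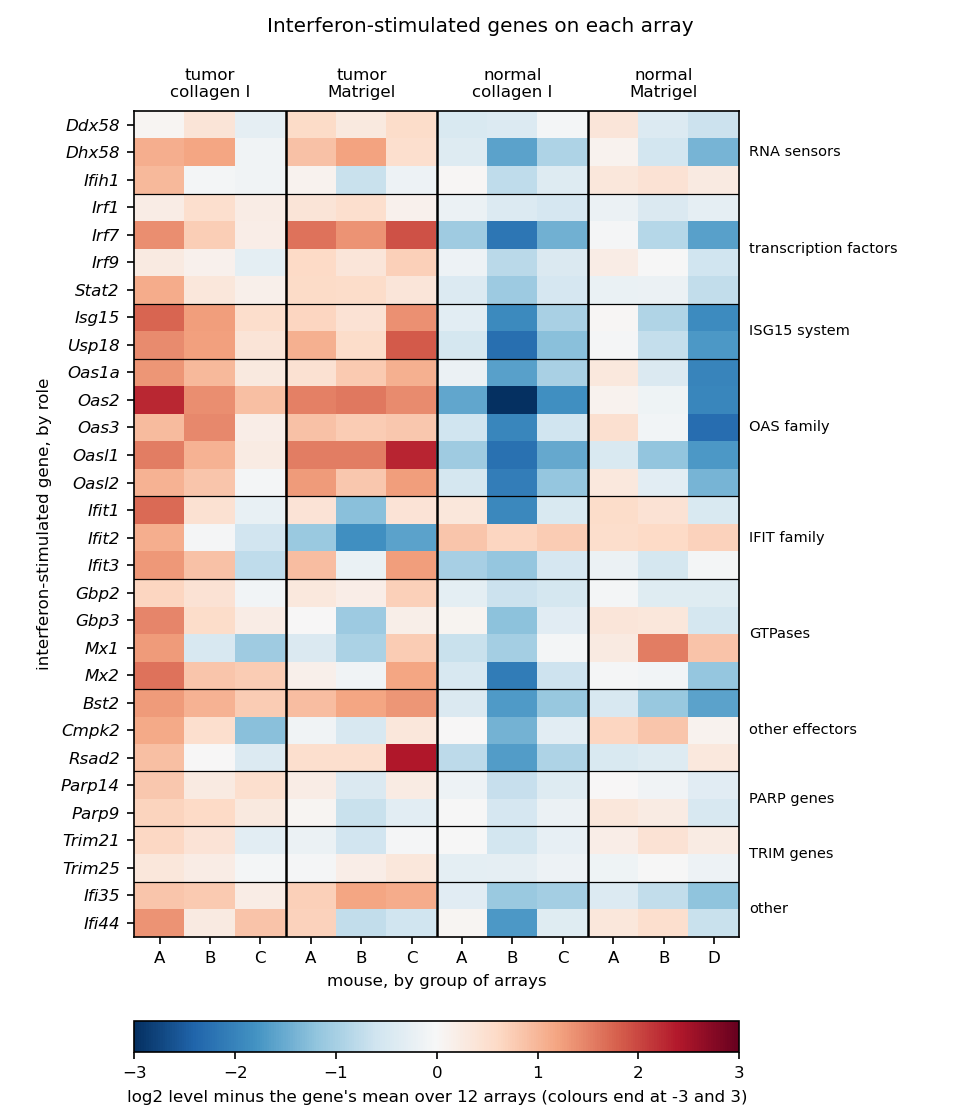
Level of each of the 30 interferon-stimulated genes on the 12 arrays, as the log2 level minus the mean of the gene over all arrays (colour scale), with genes in rows by role and arrays in columns by group and mouse. Rows such as Irf7, Bst2, Oasl1 and Oas2 are above their mean on all 6 tumor arrays, while Ifit2 is below it in tumor organoids in Matrigel and mouse B of the normal collagen I group is low in most rows.

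Of the 4 transcription factor genes in the set, 4 were called higher in tumor organoids in Matrigel and 3 in collagen I. Irf7, the factor that amplifies type I interferon production, was at 2.98, 2.32 and 1.78 in tumor organoids in collagen I and 3.22, 2.93 and 3.50 in tumor organoids in Matrigel, against 0.52, -0.58 and 0.14 in normal organoids in collagen I and 1.54, 0.72 and -0.048 in normal organoids in Matrigel. All 6 tumor arrays were above all 6 normal arrays. The tumor minus normal difference was 2.33 ± 0.43 in collagen I (adjusted p = 0.00738, limma) and 2.48 ± 0.43 in Matrigel (adjusted p = 0.00115, limma).

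Stat2, a subunit of the ISRE-binding complex, was at 2.08, 1.31 and 1.14 in tumor organoids in collagen I and 1.54, 1.53 and 1.35 in tumor organoids in Matrigel, against 0.57, -0.11 and 0.47 in normal organoids in collagen I and 0.78, 0.79 and 0.22 in normal organoids in Matrigel. Here too the tumor arrays lay above the normal ones, with differences of 1.19 ± 0.28 in collagen I and 0.88 ± 0.28 in Matrigel (limma adjusted p = 0.0242 and 0.0232). Irf1, a factor induced by interferon-gamma that activates many of the same promoters, was at 4.10, 4.40 and 4.12 in tumor organoids in collagen I and 4.28, 4.40 and 4.01 in tumor organoids in Matrigel, against 3.70, 3.48 and 3.38 in normal organoids in collagen I and 3.70, 3.47 and 3.63 in normal organoids in Matrigel. The spread within its groups was small, so that differences of 0.68 ± 0.17 and 0.63 ± 0.17 passed (limma adjusted p = 0.0335 in collagen I and 0.011 in Matrigel). In Matrigel Irf1 did not pass with a fixed slide term, nor with quantile normalization, normexp or the authors' deposited values, where its difference was 0.12, 0.27 and 0.073. Irf9, the DNA-binding subunit of the complex, averaged 2.12 ± 0.29 (SD, n = 3) in tumor organoids in collagen I and 2.64 ± 0.18 in Matrigel, against 1.6 ± 0.33 and 1.96 ± 0.43 in normal organoids. Its difference passed in Matrigel at 0.68 ± 0.26 (limma adjusted p = 0.0458) and was 0.51 ± 0.26 in collagen I (limma adjusted p = 0.266). The Matrigel call was kept in 7 of 23 alternatives, with a difference as low as 0.33.

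Both members of the ISG15 system were higher in tumor organoids in both gels. The array file places the only Isg15 probe on chromosome 17 of an older build, whereas RefSeq has the gene on chromosome 4; the name and accession of the file were kept, and what the probe reads was not tested. Isg15, the ubiquitin-like modifier, was at 4.95, 4.46 and 3.74 in tumor organoids in collagen I and 3.86, 3.65 and 4.59 in tumor organoids in Matrigel, against 2.89, 1.30 and 2.24 in normal organoids in collagen I and 3.24, 2.31 and 1.33 in normal organoids in Matrigel. The differences were 2.24 ± 0.53 in collagen I and 1.74 ± 0.53 in Matrigel (limma adjusted p = 0.0258 and 0.0188). Usp18, the protease that removes ISG15 and also restrains the type I receptor, was at 3.14, 2.93 and 2.09 in tumor organoids in collagen I and 2.78, 2.27 and 3.55 in tumor organoids in Matrigel, against 1.19, -0.55 and 0.46 in normal organoids in collagen I and 1.68, 1.00 and -0.0046 in normal organoids in Matrigel. Neither gene's tumor arrays overlapped its normal arrays, and Usp18 differed by 2.36 ± 0.54 in collagen I and 1.97 ± 0.54 in Matrigel (limma adjusted p = 0.0214 and 0.011).

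The OAS family, whose enzymes make oligoadenylates that activate the ribonuclease RNase L, held the largest difference of the 30 genes in each gel. Oas2 was at 2.33, 1.47 and 0.98 in tumor organoids in collagen I and 1.58, 1.65 and 1.5 in tumor organoids in Matrigel, against -1.49, -3.66 and -1.77 in normal organoids in collagen I and 0.17, -0.06 and -1.88 in normal organoids in Matrigel. The normal arrays spread widely in both gels, the tumor Matrigel arrays hardly at all. Its difference was 3.90 ± 0.64 in collagen I (limma adjusted p = 0.00327) and 2.17 ± 0.64 in Matrigel (limma adjusted p = 0.0156).

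Oasl1, an OAS-like protein without synthetase activity that limits Irf7 translation in mice, was at 1.41, 0.91 and 0.12 in tumor organoids in collagen I and 1.42, 1.41 and 2.16 in tumor organoids in Matrigel, against -1.20, -2.37 and -1.66 in normal organoids in collagen I and -0.59, -1.30 and -1.84 in normal organoids in Matrigel. Every tumor array was above 0 and every normal array below it. The differences were 2.56 ± 0.43 in collagen I and 2.91 ± 0.43 in Matrigel (limma adjusted p = 0.00392 and 0.000478). Oasl2 was at 3.73, 3.52 and 2.64 in tumor organoids in collagen I and 3.97, 3.49 and 3.94 in tumor organoids in Matrigel, against 2.16, 0.62 and 1.54 in normal organoids in collagen I and 3.01, 2.39 and 1.29 in normal organoids in Matrigel. Within each gel its tumor arrays lay above the normal ones, by 1.85 ± 0.48 in collagen I and 1.57 ± 0.48 in Matrigel (limma adjusted p = 0.0387 and 0.0194). The Oasl2 call was kept in 11 of 23 alternatives in collagen I and in 18 of 23 in Matrigel. Oas1a averaged 3.57 ± 0.52 (SD, n = 3) and 3.48 ± 0.30 in tumor organoids in collagen I and Matrigel, against 1.78 ± 0.72 and 2.01 ± 1.17 in normal organoids. Its difference of 1.47 ± 0.54 passed in Matrigel (limma adjusted p = 0.0427), a call kept in 10 of 23 alternatives. That of 1.79 ± 0.54 in collagen I did not pass (limma adjusted p = 0.0701).

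Oas3 gave different answers on its 2 probes, both well above background on all 12 arrays. The brighter probe, the one used in the counts, averaged -0.66 ± 0.63 (SD, n = 3) in tumor organoids in collagen I and -0.70 ± 0.06 in Matrigel, against -2.56 ± 0.78 and -2.15 ± 1.46 in normal organoids, and passed in neither gel (limma adjusted p = 0.0965 and 0.0789). The other probe was at -0.45, -0.34 and -0.87 in tumor organoids in collagen I and 0.34, 0.08 and 0.43 in Matrigel, against -5.26, -5.83 and -5.56 in normal organoids in collagen I and -3.21, -5.04 and -5.47 in Matrigel. With every one of 26606 probes tested on its own, a test added after the data were seen, that probe differed by 5.0 ± 0.47 in collagen I and 4.86 ± 0.47 in Matrigel (limma adjusted p = 8.64e-05 and 5.1e-05). Which of the probes tracks the transcript was not tested.

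**Figure D2:**
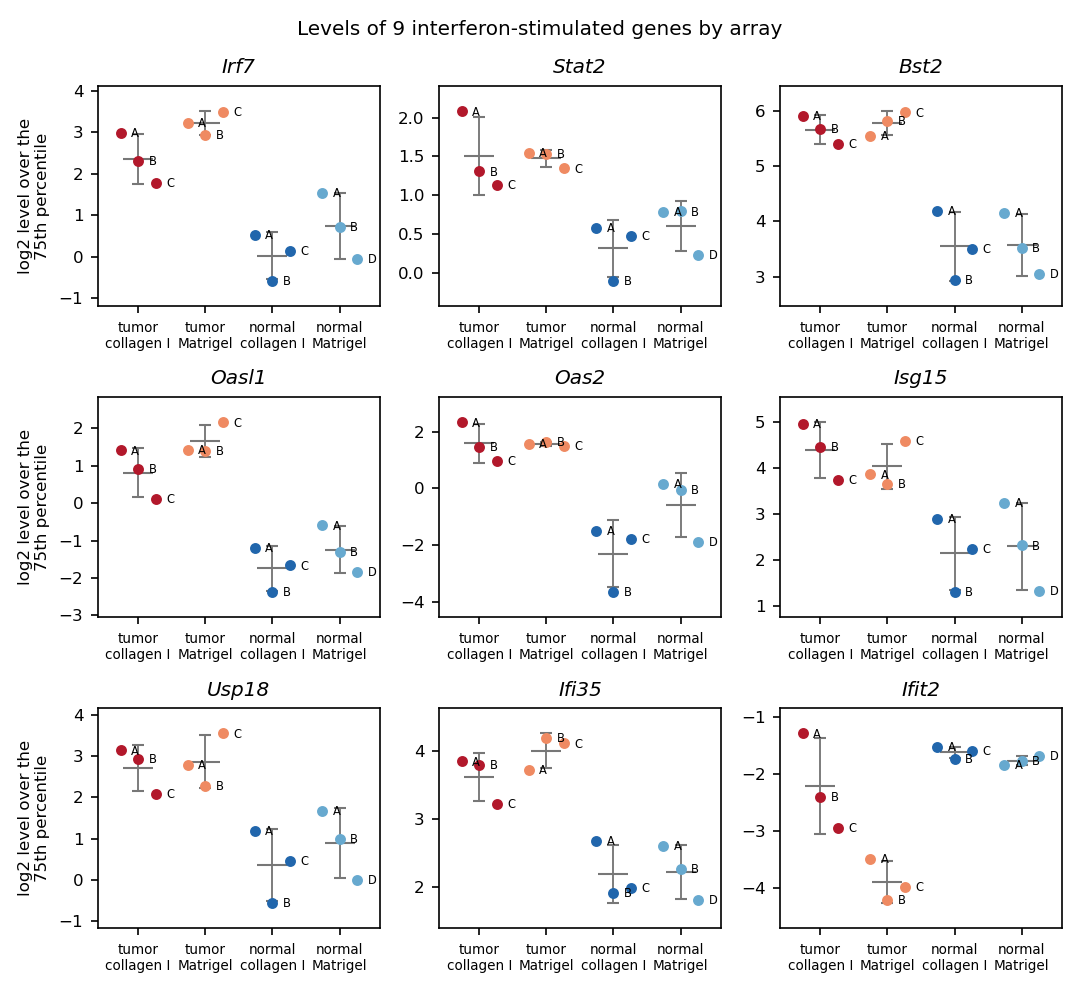
Log2 level relative to the 75th percentile of the array for 9 interferon-stimulated genes, with a point for each mouse (letter), and the mean and SD of the 3 mice as a bar in grey. In 8 of the panels the tumor arrays lie above the normal arrays of the same gel, and in the Ifit2 panel the tumor Matrigel arrays are the lowest.

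The membrane and nuclear effectors behaved in more than one way. Bst2, or tetherin, which holds budding enveloped viruses at the cell surface, was at 5.92, 5.67 and 5.40 in tumor organoids in collagen I and 5.56, 5.82 and 5.98 in tumor organoids in Matrigel, against 4.20, 2.95 and 3.50 in normal organoids in collagen I and 4.15, 3.52 and 3.05 in normal organoids in Matrigel. The lowest tumor array stood above the highest normal array, and the differences were 2.12 ± 0.34 in collagen I and 2.21 ± 0.34 in Matrigel (limma adjusted p = 0.00312 and 0.000599). Bst2 also marks plasmacytoid dendritic cells in mice. Of 7 markers of those cells, Siglech, a defining one, did not pass the filter on dim probes, Tlr7 was well above background on no tumor array, and the other 5, Bst2 among them, were well above background on all 12 arrays. Of the 6 tested, 4 were above 0 between tissues in each gel; Bst2 passed as higher in both and Tcf4 as lower in Matrigel. Their summed linear level, Bst2 included, was 124 to 255 in tumor organoids in collagen I and 179 to 263 in tumor organoids in Matrigel, against 103 to 136 in normal organoids in collagen I and 93.9 to 135 in normal organoids in Matrigel. Most of that sum came from Ly6d, which passed in neither gel, and from Bst2. The part of these markers in the result was not tested.

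Ifi35, a leucine zipper protein that partners Nmi, was at 3.85, 3.80 and 3.23 in tumor organoids in collagen I and 3.72, 4.20 and 4.12 in tumor organoids in Matrigel, against 2.68, 1.91 and 1.99 in normal organoids in collagen I and 2.60, 2.27 and 1.81 in normal organoids in Matrigel. Its differences were 1.43 ± 0.28 in collagen I and 1.79 ± 0.28 in Matrigel (limma adjusted p = 0.0105 and 0.000697), again with no overlap of tumor and normal arrays. Rsad2, or viperin, which makes a chain-terminating nucleotide, was higher on every tumor array than on the normal arrays of the same gel, but its differences of 1.30 ± 0.52 and 1.32 ± 0.52 did not pass (limma adjusted p = 0.162 in collagen I and 0.0544 in Matrigel). A second, dimmer Rsad2 probe passed in Matrigel at 2.08 ± 0.47 (limma adjusted p = 0.00392 over all probes). Cmpk2, a mitochondrial nucleotide kinase encoded beside Rsad2, averaged -2.04 ± 1.24 (SD, n = 3) in tumor organoids in collagen I and -2.25 ± 0.41 in Matrigel, against -2.75 ± 0.74 and -1.64 ± 0.37 in normal organoids, and passed in neither gel.

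Among the cytosolic sensors of viral RNA, Dhx58 (LGP2) was at 2.71, 2.81 and 1.53 in tumor organoids in collagen I and 2.51, 2.82 and 2.12 in tumor organoids in Matrigel, against 1.24, 0.019 and 0.70 in normal organoids in collagen I and 1.73, 1.08 and 0.22 in normal organoids in Matrigel. Its differences of 1.69 ± 0.46 and 1.48 ± 0.46, without overlap within a gel, passed in both (limma adjusted p = 0.0456 in collagen I and 0.0205 in Matrigel). The Dhx58 call was kept in 12 of 23 alternatives in collagen I and in 20 of 23 in Matrigel. Ddx58 (RIG-I) passed in Matrigel at 0.71 ± 0.27 (limma adjusted p = 0.0474), with overlapping arrays, and was 0.37 ± 0.27 in collagen I. That call was kept in 6 of 23 alternatives, with a difference as low as 0.33. Of its 3 other probes, 1 passed in collagen I and not in Matrigel, at 0.90 ± 0.18 and 0.18 ± 0.18 (limma adjusted p = 0.0135 and 0.442 over all probes), 1 passed in Matrigel, at 1.04 ± 0.34 (limma adjusted p = 0.0235), and 1 in neither. Ifih1 (MDA5) passed in neither gel, with differences of 0.63 ± 0.32 in collagen I and -0.58 ± 0.32 in Matrigel.

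The interferon-inducible GTPases were less uniform. Gbp2, a guanylate-binding protein, was at 1.89, 1.68 and 1.17 in tumor organoids in collagen I and 1.56, 1.45 and 1.97 in tumor organoids in Matrigel, against 0.94, 0.60 and 0.71 in normal organoids in collagen I and 1.19, 0.89 and 0.88 in normal organoids in Matrigel. It differed by 0.83 ± 0.22 in collagen I and 0.67 ± 0.22 in Matrigel (limma adjusted p = 0.0435 and 0.0268), without overlap within a gel. The Gbp2 call was kept in 11 of 23 alternatives in collagen I and in 15 of 23 in Matrigel. Mx2 was at 2.49, 1.69 and 1.61 in tumor organoids in collagen I and 1.00, 0.74 and 2.03 in tumor organoids in Matrigel, against 0.37, -1.24 and 0.21 in normal organoids in collagen I and 0.81, 0.76 and -0.32 in normal organoids in Matrigel. The collagen I arrays did not overlap and differed by 2.15 ± 0.50 (limma adjusted p = 0.0235), whereas those in Matrigel overlapped, with a difference of 0.84 ± 0.50 (limma adjusted p = 0.18). Mx1 averaged -3.10 ± 1.22 (SD, n = 3) and -3.22 ± 0.89 in tumor organoids in collagen I and Matrigel, against -3.59 ± 0.48 and -2.12 ± 0.64 in normal organoids, and passed in neither gel. RefSeq lists both Mx genes as transcribed pseudogenes in its reference strain. Gbp3, named Gbp4 on the array, had differences of 1.24 ± 0.46 in collagen I and -0.36 ± 0.46 in Matrigel and passed in neither (limma adjusted p = 0.132 and 0.53).

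The IFIT proteins bind viral RNA ends, and Ifit2 was the one gene of the set called lower in tumor organoids. It was at -1.30, -2.41 and -2.94 in tumor organoids in collagen I and -3.49, -4.21 and -3.98 in tumor organoids in Matrigel, against -1.54, -1.74 and -1.61 in normal organoids in collagen I and -1.85, -1.78 and -1.69 in normal organoids in Matrigel. The 6 normal arrays lay within a narrow band, and the 3 tumor Matrigel arrays were far below it. The difference was -2.12 ± 0.35 in Matrigel (limma adjusted p = 0.000853) and -0.59 ± 0.35 in collagen I (limma adjusted p = 0.35). A second Ifit2 probe, well above background on 2 of the 3 tumor Matrigel arrays, was also lower in Matrigel, at -1.48 ± 0.46 (limma adjusted p = 0.0205 over all probes). The probe is dim, and with normexp background correction the Matrigel difference was -0.20 and did not pass (limma adjusted p = 0.656). Ifit1 and Ifit3 passed in neither gel, with differences of 1.33 ± 0.67 and 1.36 ± 0.51 in collagen I and -0.32 ± 0.67 and 0.92 ± 0.51 in Matrigel.

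Of the remaining genes, Parp14, an ADP-ribosyltransferase, was at 3.46, 2.92 and 3.14 in tumor organoids in collagen I and 2.87, 2.23 and 2.90 in tumor organoids in Matrigel, against 2.50, 1.96 and 2.27 in normal organoids in collagen I and 2.67, 2.55 and 2.31 in normal organoids in Matrigel. Its difference passed in collagen I at 0.93 ± 0.24 (limma adjusted p = 0.0354), where the arrays did not overlap, and was 0.16 ± 0.24 in Matrigel. The Parp14 call in collagen I was kept in 11 of 23 alternatives. Parp9, which acts in a complex with the ubiquitin ligase DTX3L, differed by 0.76 ± 0.26 in collagen I and -0.34 ± 0.26 in Matrigel and passed in neither. Trim21, an intracellular antibody receptor, and Trim25, a ubiquitin ligase that activates RIG-I, likewise did not pass, with differences of 0.50 ± 0.26 and 0.40 ± 0.16 in collagen I and -0.56 ± 0.26 and 0.27 ± 0.16 in Matrigel. Ifi44 had 1.5 ± 0.54 in collagen I and -0.27 ± 0.54 in Matrigel on the probe used. Its other probe passed as lower in Matrigel at -1.68 ± 0.54 (limma adjusted p = 0.0235 over all probes).

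**Figure D3:**
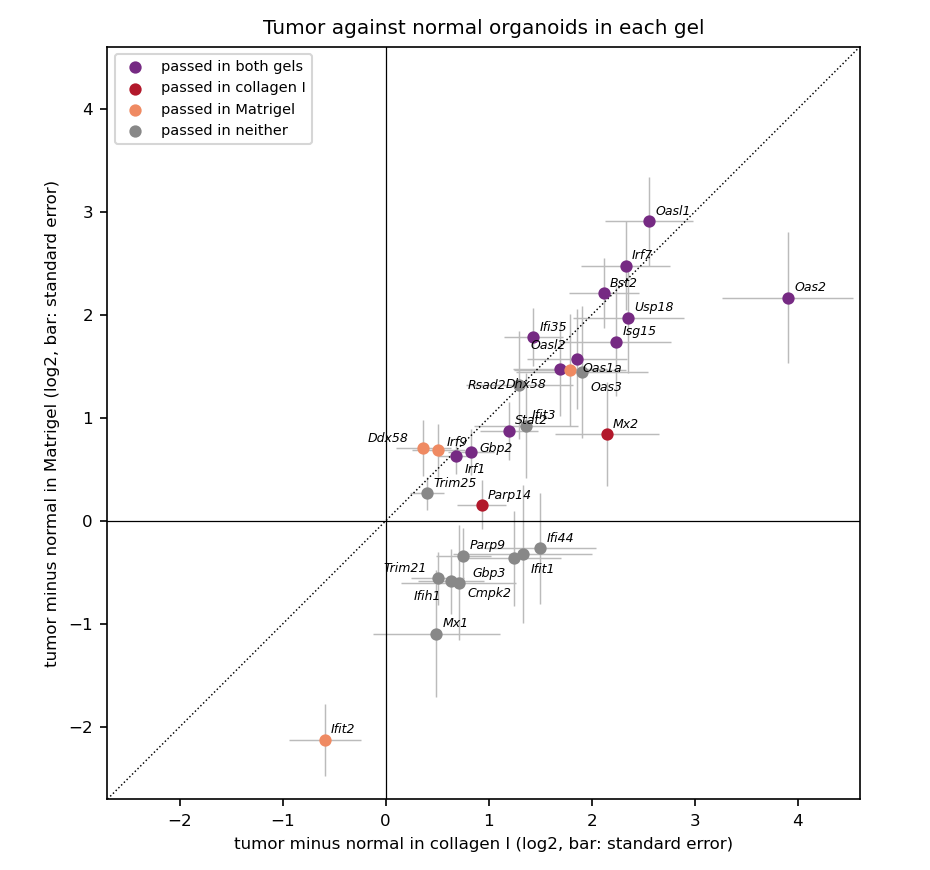
Tumor minus normal difference of each of the 30 genes in collagen I (x axis) and in Matrigel (y axis), in log2 units, with bars for limma's standard errors, and the diagonal as a dotted line; the 2 axes share no array. Of the 30 genes, 23 lie on the collagen I side of the diagonal, and 8 genes are above 0 in collagen I and below 0 in Matrigel.

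The calls in collagen I were lost in a fit with fixed slide terms, which take up most of the residual degrees of freedom; the cause of the loss was not tested. Slides 3, 4, 6 and 8 held arrays of more than 1 group. With slide as a fixed term, none of the 30 genes passed between tissues in collagen I (limma), 16 were at an unadjusted p under 0.05, and the median difference was 1.13; in that fit 193 genes of the whole array passed. Bst2, Irf7, Oas2 and Oasl1 then had adjusted p values of 0.0966, 0.0866, 0.0636 and 0.0762 (limma). The other 22 alternatives, leaving out each array included, kept these 4 genes. On slide 6, which held 1 tumor and 1 normal array in collagen I, 28 of 30 genes were higher in the tumor array, with a median difference of 1.29. In Matrigel, slide 4 gave a median of 0.85 with 19 of 30 genes higher in the tumor array, and the fit with fixed slide terms called 14 genes, 10 higher and 4 lower, with Ifih1, Mx1 and Trim21 joining Ifit2 among the lower ones. In Matrigel, Bst2, Ifi35, Irf7 and Oasl1 passed under all 23 alternatives.

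Single arrays also weighed on the counts. Without the normal collagen I array of mouse B, 4 genes passed in collagen I (Bst2, Irf7, Oas2 and Oasl1), and without that of mouse C, 5 did (the same 4 and Mx2). Without the tumor collagen I array of mouse A or of mouse B, 7 passed each time, and without the normal Matrigel array of mouse B, 9 did. In Matrigel, 7 passed without the normal array of mouse D and 10 without the tumor array of mouse C.

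Of the 30 genes, 14 had 18 further probes that passed the filter on dim probes. These had the sign of the probe used in 16 of 18 cases between tissues in Matrigel, where Parp14 and Trim25 were the exceptions, and in 17 of 18 in collagen I, where Trim25 was. Between the gels the sign was shared by 14 of 18 in tumor organoids and 16 of 18 in normal organoids, and no probe of opposite sign passed in any comparison. The second Oas2 probe was well above background on no normal array in collagen I and passed in Matrigel at 1.90 ± 0.56 (limma adjusted p = 0.016 over all probes).

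Between the gels, few interferon-stimulated genes were called. In tumor organoids, collagen I against Matrigel, 2 of 30 genes were called higher (Ifit2 and Parp9) and none lower, where 27.9% of all genes were called, 15.7% higher and 12.2% lower. The median over the 30 genes was 0.03, and -0.05 over all genes. Ifit2 levels, given above, were higher on all 3 collagen I arrays than on the 3 Matrigel arrays, by 1.68 ± 0.35 (limma adjusted p = 0.00755), but by 0.03 with normexp (limma adjusted p = 0.955). Parp9 was at 2.11, 2.05 and 1.73 in tumor organoids in collagen I and 1.5, 0.79 and 1.12 in tumor organoids in Matrigel, against 1.43, 0.93 and 1.27 in normal organoids in collagen I and 1.77, 1.68 and 0.96 in normal organoids in Matrigel. In tumor organoids its arrays did not overlap between gels and differed by 0.83 ± 0.26 (limma adjusted p = 0.0391), a call that was lost when any of 7 single arrays was left out. Without overlap, 4 genes were higher (Ifit2, Parp9, Parp14 and Gbp3) and 1, Irf9, lower, where 19.7% and 18.8% of all genes were. The other probe of Ifi44 and a second Parp14 probe passed as higher in collagen I, at 2.85 ± 0.54 and 1.40 ± 0.33 (limma adjusted p = 0.00488 and 0.012 over all probes), and a second Rsad2 probe as lower, at -1.55 ± 0.47 (limma adjusted p = 0.0299).

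In normal organoids no gene of the set was called between the gels (limma), where 0.0438% of all genes were (0.0383% higher and 0.00547% lower), and 3 were at an unadjusted p under 0.05, all lower in collagen I. These were Oas2 at -1.72 ± 0.64, Mx1 at -1.47 ± 0.61 and Ifih1 at -0.71 ± 0.32 (limma adjusted p = 0.44, 0.51 and 0.536). None of the alternatives called a gene. Without overlap of the arrays, 6 genes were lower in collagen I (Cmpk2, Ifih1, Mx1, Rsad2, Trim21 and Trim25) and none higher, where 9.95% of all genes were lower and 11.6% higher. The difference was below 0 for 29 of the 30 genes, with a median of -0.46 and an all-gene median of -0.01. That median was -0.14 without the collagen I array of mouse B, -0.18 without the Matrigel array of mouse A, and -0.03 with slide as a fixed term. Within mouse A it was -0.35 and within mouse B -1.06, on slide 3 it was -0.48 with 27 of 30 genes below 0, and on slide 4 it was 0.45 with 23 of 30 above 0. None of the 11 leukocyte markers tested passed in this contrast (limma), and 10 of the 11 differences were above 0. Ptprc, Laptm5 and Cd79a passed the filter on dim probes only through normal organoids in collagen I, which favoured differences above 0. The summed linear level of the 11 markers, most of which came from Cd14 and Lyz2, was 92.5 to 106 in normal organoids in collagen I, against 36.7 to 57.1 in normal organoids in Matrigel. Their part in the result was not tested.

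The gel effect in tumor organoids minus that in normal organoids, which is the same quantity as the tissue effect in collagen I minus that in Matrigel, passed for none of the 30 genes (limma), where 2.67% of all genes passed. Of the 30, 7 were at an unadjusted p under 0.05, all above 0: Ifit2, Parp9, Trim21, Ifih1, Gbp3, Ifi44 and Parp14. The lowest adjusted p was 0.0963, for Ifit2 at 1.53 ± 0.50. Parp9 was at 1.09 ± 0.37 and Trim21 at 1.06 ± 0.36 (limma adjusted p = 0.107 each). Without the tumor collagen I array of mouse C, Ifit2 and Trim21 passed. A gene that passed between tissues in 1 gel only is therefore not shown to differ between the gels.

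**Figure D4:**
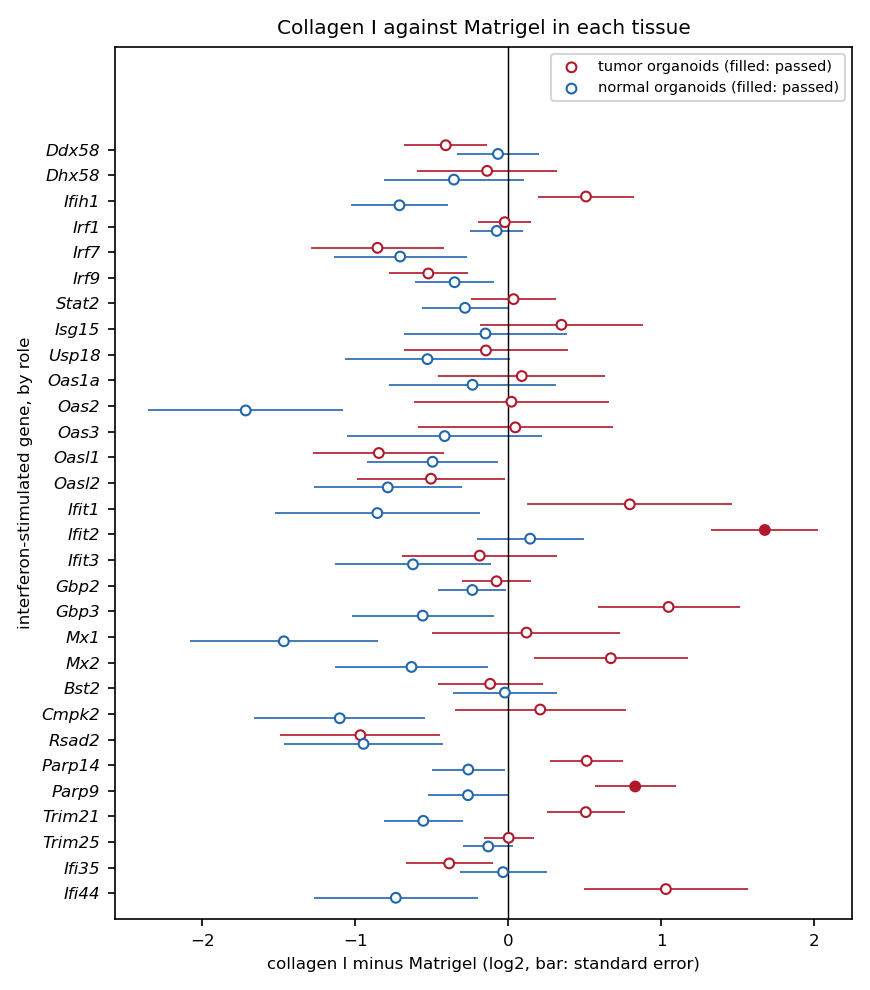
Collagen I minus Matrigel difference of the 30 genes in tumor organoids (red) and normal organoids (blue), in log2 units, with bars for limma's standard errors; filled points passed. Only Ifit2 and Parp9 in tumor organoids are filled, and 29 of the 30 normal points lie below 0.

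The 30 genes varied together among the mice of a group. In normal organoids in collagen I, the array of mouse B was the lowest of its group for 27 of 30 genes, where it was the lowest for 38.0% of all genes, and the array of mouse A the highest for 25, where it was the highest for 42.8% of all genes. In tumor organoids in collagen I, the array of mouse C was the lowest for 27 (41.7% of all genes) and that of mouse A the highest for 26 (33.8%). In tumor organoids in Matrigel, mouse B was the lowest for 22 (25%), and in normal organoids in Matrigel, mouse D for 24 (38.3%). The median deviation from the mean of the group ran from -0.57 in the normal collagen I array of mouse B to 0.49 in the tumor collagen I array of mouse A.

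In tumor organoids the mouse letters did not set a fixed order across gels. Tumor mouse A was the highest of its group in collagen I, and tumor mouse C was the lowest in collagen I and the highest for 17 of 30 genes in Matrigel. Normal mice A and B had each been hybridised in batch 1 as well, in Matrigel. Mouse A exceeded mouse B for 27 of 30 genes in batch 1, with a median difference of 0.38, and for 21 of 30 in batch 2, with a median of 0.23. In normal organoids in collagen I, mouse A was likewise the highest of its group for 25 genes and mouse B the lowest for 27. The genes share an array and its labelling, so they are not independent readings of a mouse.

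**Figure D5:**
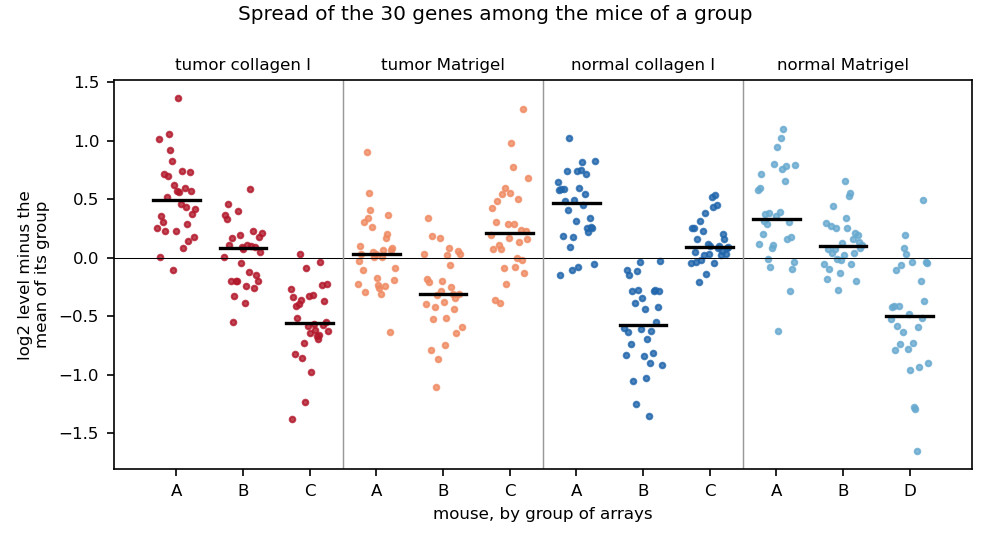
Log2 level of each of the 30 genes minus the mean of its group (points) on the 12 arrays, with the median over the genes as a black line. The medians of the tumor collagen I arrays of mice A and C lie at 0.49 and -0.56, and those of the normal collagen I arrays of mice A and B at 0.47 and -0.57.

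Other genes of the pathway were read from lists chosen by function, with earlier results of these data known. Of 49 other interferon-stimulated genes tested, 22 were higher and 2 lower in tumor organoids in Matrigel, and 15 higher and none lower in collagen I. Of all genes, 25.9% were higher and 25.8% lower in Matrigel and 3.66% and 5% in collagen I. Sp110, a nuclear body protein, differed by 2.15 ± 0.22 in collagen I and 3.06 ± 0.22 in Matrigel (limma adjusted p = 0.000184 and 1.29e-05), and Isg20, an exonuclease that degrades viral RNA, by 1.64 ± 0.45 and 3.74 ± 0.45 (limma adjusted p = 0.0485 and 0.000182). The 2 lower genes in Matrigel were Eif2ak2, the kinase PKR, at -1.43 ± 0.39, and Apobec3, a cytidine deaminase, at -1.20 ± 0.35 (limma adjusted p = 0.0106 and 0.0146). Between the gels in tumor organoids, 6 of the 49 were higher and 6 lower in collagen I, where 15.7% and 12.2% of all genes were, Apobec3 at 1.6 ± 0.35 and Isg20 at -2.18 ± 0.45 among them (limma adjusted p = 0.00863 and 0.00732); in normal organoids none passed.

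Upstream of these genes, no interferon gene passed in any comparison. Of 15 interferon genes with a probe, 9 did not pass the filter on dim probes, Ifnb1 and Ifng among them, and the 6 tested had a summed linear level of 0.52 to 1.03 in tumor organoids in collagen I, 0.61 to 0.79 in tumor organoids in Matrigel, 0.54 to 0.80 in normal organoids in collagen I and 0.50 to 0.90 in normal organoids in Matrigel. Ifnz, of the type I family in mice, was at -1.63 ± 0.66 (SD, n = 3) in tumor organoids in collagen I and -1.87 ± 0.35 in tumor organoids in Matrigel, against -1.5 ± 0.17 in normal organoids in collagen I and -1.48 ± 0.43 in normal organoids in Matrigel. The interferon-alpha genes are near-identical copies, so their probes may not tell them apart. Of 10 receptor and kinase genes, 4 were higher and 1 lower in tumor organoids in Matrigel. Ifnar2, a chain of the type I receptor, differed by 0.15 ± 0.20 in collagen I and 1.25 ± 0.20 in Matrigel (limma adjusted p = 0.711 and 0.000664). Ifnar2 was also lower in collagen I than in Matrigel in tumor organoids, at -0.85 ± 0.20 (limma adjusted p = 0.0117). The Janus kinase Jak1 passed in no comparison.

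In the lists that follow, the counts stand beside 51.8% of all genes called in Matrigel and 8.66% in collagen I. Of 14 genes that sense nucleic acids or relay to interferon production, 7 were higher and 4 lower in tumor organoids in Matrigel and 3 higher and 1 lower in collagen I. Irf5 was higher by 1.81 ± 0.31 in collagen I and 2.79 ± 0.31 in Matrigel, and Irf8, a factor of myeloid cells, lower by 2.92 and 1.89 (differences of -2.92 ± 0.53 and -1.89 ± 0.53). Of 11 feedback inhibitors, 6 were higher and 2 lower in Matrigel and 4 higher in collagen I, with Tnfaip3 at 2.16 ± 0.42 in collagen I and 1.45 ± 0.42 in Matrigel (limma adjusted p = 0.00939 and 0.0145). The MHC class I pathway, which loads peptides for T cells, had 9 of 12 genes higher and 1 lower in Matrigel and none called in collagen I, where all 12 differences were above 0. H2-D1 differed by 1.1 ± 0.31 in collagen I and 1.34 ± 0.31 in Matrigel (limma adjusted p = 0.053 and 0.00475). Of 17 genes tied mainly to interferon-gamma, 1 was higher and 3 lower in Matrigel and 2 higher and 3 lower in collagen I. The 3 lower in collagen I were Ido1, an enzyme that degrades tryptophan, and the MHC class II pathway genes Cd74 and H2-Aa. Ido1 and H2-Aa were well above background on no tumor array. They passed the filter on dim probes only through normal organoids, which favoured lower values in tumor organoids. Of the 17 differences, 10 were above 0 in collagen I and 7 in Matrigel. H2-Ab1, another class II gene, passed in neither gel, with differences of 1.62 ± 0.80 in collagen I and 1.26 ± 0.80 in Matrigel.

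Of the 11 leukocyte markers, none was higher and 5 were lower in tumor organoids in collagen I (Ptprc, Tyrobp, Lyz2, Laptm5 and Fcer1g), and in Matrigel 1, Cd68, was higher and 1, Lyz2, lower. Ptprc, the common leukocyte antigen, was well above background on no tumor array. Ptprc and Laptm5 passed the filter on dim probes only through normal organoids in collagen I, where they were highest. That selection favoured their being lower in tumor organoids in collagen I. Tyrobp, a signalling adaptor of myeloid cells, averaged -4.02 ± 0.32 (SD, n = 3) in tumor organoids in collagen I and -4.24 ± 0.31 in tumor organoids in Matrigel, against -0.47 ± 0.46 in normal organoids in collagen I and -3.19 ± 1.99 in normal organoids in Matrigel. The summed linear level, again mostly from Cd14 in tumor organoids, was 31.9 to 68.9 in tumor organoids in collagen I and 44.8 to 67.8 in tumor organoids in Matrigel, against 92.5 to 106 in normal organoids in collagen I and 36.7 to 57.1 in normal organoids in Matrigel. Luminal markers moved with the tissue contrast in Matrigel, where 5 of 8 were called higher in tumor organoids, beside 25.9% of all genes. Their summed level was 1064 to 1563 in tumor organoids in Matrigel, against 623 to 870 in normal organoids in Matrigel. In collagen I none of the 8 passed. The part of the leukocyte, luminal, basal, fibroblast and endothelial markers in the interferon-stimulated genes was not tested.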

How the data were processed

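Per the file headers, each array file holds Agilent's processed signal, an intensity after background subtraction and spatial detrending; the headers name Feature Extraction 9.5 and the submitters' processing notes 9.1. A table of log2 values by the authors (centring: not given in the sources used here) served as an alternative. In it the batch 1 and batch 2 arrays of normal mouse B in Matrigel share a column. That column correlated at 0.995 with the batch 1 array and 0.992 with the batch 2 array. This alternative may therefore not hold the batch 2 array of that mouse. Of 14 arrays (13 samples), the 12 of batch 2 were compared. From the intensities, log2 values minus the 75th percentile of each array were taken, without control spots or outlier spots, and each probe's spots were averaged. Of 41174 probes, 26606 passed the filter (some group had all its arrays well above background); a gene was its probe with the highest mean. RefSeq names (GRCm38.p6) covered 22951 probes (55.7%); probe coordinates are not used here.

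limma 3.58.1 (R 4.3.3) was fitted over all 18274 genes with a term per group and checked on simulated data; p-values were adjusted by Benjamini-Hochberg. The number of arrays limits the precision. The labels pair the gels by mouse: deviations of same-mouse arrays correlated at 0.24 (A) and -0.243 (B) in normal organoids, and in tumor organoids at -0.0583 (A), 0.323 (B) and 0.419 (C). Tried besides were normexp (offset 50), quantile normalization, the authors' values, 2 filters, the mean over probes, only the groups compared, batch 1, mouse and slide blocks, and leaving out each array. Genes were named by the rule that all members are given by role, with arrays in full for the 16 lowest adjusted p among those called, and up to 4 called genes of each list. Members and lists were chosen with earlier results of these data known. Lists were markers of luminal, basal, leukocyte, fibroblast, endothelial and plasmacytoid dendritic cells, and interferons, their receptors and kinases, sensing, feedback, MHC class I, interferon-gamma genes and other interferon-stimulated genes. Figures were drawn with matplotlib.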

Additional observations from a re-analysis of the deposited data

Results flagged for a closer look

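In 2 genes of the wider pathway the effect of collagen I against Matrigel differed between tumor and normal organoids by the test of the difference itself. In that test 2.67% of all genes passed. Tlr4 was 1 of 14 genes tested in its list and Gbp4 1 of 17, and no gene of the other pathway lists passed. Neither call was tried under the alternatives. For Tlr4, the receptor for bacterial lipopolysaccharide, the gel effect in tumor organoids minus that in normal organoids was 1.81 ± 0.42 (limma adjusted p = 0.0497). Its level averaged -1.85 ± 0.58 (SD, n = 3) in tumor organoids in collagen I and -3.72 ± 0.41 in tumor organoids in Matrigel, against -0.82 ± 0.19 in normal organoids in collagen I and -0.89 ± 0.18 in normal organoids in Matrigel. For Gbp4, a guanylate-binding protein whose probe is a different one from that of Gbp3, the same quantity was 2.54 ± 0.57 (limma adjusted p = 0.0468). The Gbp4 probe was well above background on no tumor array in Matrigel, so its level there is only a bound.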

How the results depend on the processing

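No alternative reversed a called direction. Of 738 results for single called genes under an alternative, 563 kept their side of the threshold and 175 did not. Between tissues in Matrigel, the 16 calls became 10 (9 higher) with quantile normalization, 8 (7 higher) with the authors' values and 7 to 17 with an array left out. Between tissues in collagen I, the 14 calls became 9 with normexp, 9 with no filter on dim probes, 8 with only the groups compared, 0 with fixed slides and 4 to 15 with an array left out. Between gels in tumor organoids, the 2 calls became 0 with normexp, 1 with no filter, 4 with the mean over probes (Ifi44 and Parp14 added), 1 with only the groups compared, 1 with fixed slides and 1 to 3 with an array left out. For the difference of gel effects, the 0 calls became 1 with fixed slides (Mx1) and 0 to 2 with an array left out. The causes were not tested; fewer arrays or more genes enter some of these fits. With mouse as a fixed replicate block the counts stayed at 2 in tumor, 0 in normal organoids and 0 for the difference; mouse as a random replicate block left 15 and 14 between tissues. Normexp moved the median difference of all genes to 0.45 between tissues in Matrigel, with the 30 genes at 0.55, and to -0.33 between gels in tumor organoids; of all genes called in Matrigel it put 77.4% higher, against 50.1%. Dim probes such as that of Ifit2 are limited by signal over background.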
